A study of Mus musculus with 25 samples.

Results

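Collagens and laminins are the chain genes of the structural matrix, and their messenger RNA was compared here between 5 murine melanoma cell lines. All genes whose symbol reads Col, a number, a and a number were taken, together with the numbered laminin chain genes of the Lama, Lamb and Lamc families. These were 55 of the 55385 genes in the files, 44 collagen genes and 11 laminin genes. After the filter on low counts 41 of them entered the test, 33 collagen and 8 laminin genes, and the 28 genes that reached a line mean of at least 10 counts per 1000000 counts of the library (CPM) are described with their values.

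The lines were compared because they differ in how efficiently they form liver metastases after injection into the spleen. WT31, B16F10 luc2 and RET are named HIM-melanoma (high and intermediate metastatic) and D4M and HCmel12 are named LM-melanoma (low metastatic). WT31 comes from Tyr::NrasQ61K/°; INK4a−/− mice, RET is the RET1 line from mice with a RET transgene under the metallothionein-I (MT) promoter, and B16F10 luc2 is the luciferase-labelled B16F10 line. The D4M line was made from mice with the alleles Tyr::CreER, BrafCA and Ptenlox/lox, in which an inducible Cre is driven by the tyrosinase promoter, and HCmel12 from a primary melanoma of an HGF-CDK4(R24C) mouse. Total RNA of untreated cells at 50% confluency was sequenced in 25 libraries, 5 biological replicates for each line. Each genotype is represented by 1 cell line, and nothing in the labels says whether replicates were separate cultures, so p-values measure the spread between these libraries. D4M was grown in Advanced DMEM/F-12 with 5% fetal calf serum (FCS), and the other lines were grown in RPMI-based media with 10% FCS, with further supplements for HCmel12. Genotype and medium therefore cannot be told apart for D4M and HCmel12. The matrix of an intact tumor, which host fibroblasts and endothelial cells also deposit, was not part of these cultures.

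As background, collagens are trimers of alpha chains that wind into a triple helix. Fibrillar collagens assemble into the cross-linked fibers of connective tissue, whereas collagen IV forms the sheet-like network of basement membranes, the thin matrix under epithelia and around vessels, nerves and muscle. Laminins are cross-shaped trimers of an alpha, a beta and a gamma chain, they polymerize on the cell surface through integrins and dystroglycan, and they organize the basement membrane to which collagen IV is tied by nidogen and perlecan. In skin, melanocytes sit on such a basement membrane, and melanoma cells have to cross basement membranes to reach dermis and vessels.

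The collagen IV genes lie in head-to-head pairs, so that the start regions of the chains face each other, and their sequences are shown because the pairs behaved differently in these lines. Col4a1 (chr8:11198423-11312826, minus strand, GENCODE M21 on GRCm38) and Col4a2 (chr8:11312805-11449287, plus strand) have annotated start sites 21 bases apart, and both genes were expressed in all 5 lines. Col4a4 (chr1:82448423-82586849, minus strand) and Col4a3 (chr1:82586921-82722059, plus strand) are separated by 71 bases, and only Col4a4 passed the filter on low counts. Col4a6 (chrX:141165403-141474076, minus strand) and Col4a5 (chrX:141475385-141689234, plus strand) are separated by 1308 bases. The RefSeq windows (GRCm38.p6) of 250 bases before to 50 bases after the start are printed 5′ to 3′ on the strand of the gene. For Col4a1 (chr8:11312777-11313076, minus strand) and Col4a2 (chr8:11312555-11312854, plus strand) capitals mark the 78 bases that lie in both windows, and for Col4a4 (chr1:82586800-82587099, minus strand) capitals mark the 179 bases that belong to the Col4a3 gene on the opposite strand.
Col4a1: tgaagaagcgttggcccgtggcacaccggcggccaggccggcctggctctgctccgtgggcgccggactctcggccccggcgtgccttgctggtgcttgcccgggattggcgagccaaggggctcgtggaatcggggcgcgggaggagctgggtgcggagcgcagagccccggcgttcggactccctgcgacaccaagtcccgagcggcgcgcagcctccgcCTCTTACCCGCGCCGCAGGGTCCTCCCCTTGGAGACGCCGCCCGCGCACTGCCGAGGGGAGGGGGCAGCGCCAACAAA
Col4a2: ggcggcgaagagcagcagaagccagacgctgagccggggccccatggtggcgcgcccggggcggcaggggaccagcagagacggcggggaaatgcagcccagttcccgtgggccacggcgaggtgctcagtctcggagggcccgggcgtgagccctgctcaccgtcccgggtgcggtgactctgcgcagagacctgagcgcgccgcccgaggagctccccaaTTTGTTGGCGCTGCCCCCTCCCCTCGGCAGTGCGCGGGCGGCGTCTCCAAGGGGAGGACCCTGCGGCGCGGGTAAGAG
Col4a4: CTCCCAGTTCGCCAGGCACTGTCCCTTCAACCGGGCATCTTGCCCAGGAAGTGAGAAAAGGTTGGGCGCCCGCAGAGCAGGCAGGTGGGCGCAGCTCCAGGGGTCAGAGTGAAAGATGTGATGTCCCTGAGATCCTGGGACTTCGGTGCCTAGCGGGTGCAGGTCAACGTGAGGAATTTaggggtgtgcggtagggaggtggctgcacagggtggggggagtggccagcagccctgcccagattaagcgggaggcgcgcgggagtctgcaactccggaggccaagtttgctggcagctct

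In these windows the GC box (letters GGGCGG, either strand) occurred 1 time for Col4a1, 3 times for Col4a2 and not for Col4a4, and the CCAAT box (letters CCAAT, either strand, in these windows not overlapping a GC box match) occurred 1 time each for Col4a1 and Col4a2 and not for Col4a4. Among all 32851 RefSeq windows of this length, 35.7% held the GC box and 37.4% the CCAAT box. A window was found for 40 of the 55 genes, 44 windows in all, of which 26 held the GC box and 14 the CCAAT box. A match describes letters and is not a binding site.

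Library totals lay between 24199083 and 25843286 counts, so that 3 counts, the smallest amount taken as detectable, correspond to 0.114 to 0.133 CPM, which covers counting error only. Every library correlated best with libraries of its own line. The melanocyte markers Mitf, Sox10, Pmel, Tyr, Tyrp1, Dct and Mlana were all over 1 CPM in 4 lines (summed CPM 12026 to 30206), whereas in D4M 4 of 7 exceeded 1 CPM and the sum was 6.54 to 59.6. The D4M count rested on replicate 1, which stood apart with a sum of 59.6 CPM. Without it the D4M sums were 6.54 to 12.1 CPM and only Mitf exceeded 1 CPM. Without that library the filter kept 43 genes of the set, and 40 (WT31), 39 (B16F10 luc2) and 37 (RET) genes differed from D4M in the test described below. The rule for common regulation was met by 6 genes, and 226 of 227 calls of the 28 genes remained, the exception being Col15a1 between D4M and HCmel12. Fibroblast and mural markers were most abundant in D4M, with 4 of 8 over 1 CPM and sums of 103 to 169.6 against 0.895 to 81.6 elsewhere, while Lum was at most 3 counts in all lines. The D4M sum came mostly from Pdgfra and Pdgfrb (59.5 and 47.4 CPM on average), whereas Postn averaged 13.2 CPM in D4M and 32.6 CPM in WT31. Macrophage and leukocyte markers were also highest in D4M without overlap, with 2 of 6 over 1 CPM (Cd68 and Cd14) and sums of 8.19 to 22.3 CPM against 0.554 to 5.75 elsewhere, while Ptprc and Adgre1, which define leukocytes and macrophages, had at most 3 counts in any library. In bulk RNA fewer cells of a kind and less RNA per cell cannot be told apart. The part of both marker lists in the high collagen and laminin levels of D4M was not tested. In WT31 replicate 1, the library with the highest Col5a1, the fibroblast marker Postn lay at 79.3 CPM against 11.3 to 30.5 CPM in the other WT31 libraries, and the part of this in Col5a1 was not tested. In HCmel12 endothelial markers summed to 25.5 to 39.1 CPM, mostly Kdr, against at most 2.11 CPM elsewhere. Kdr was the only 1 of these 6 markers over 1 CPM in HCmel12, and Cdh5 and Emcn had at most 3 counts there. Epithelial markers summed to 3.81 to 15.3 CPM in HCmel12, mostly Cdh1, against at most 1.68 CPM elsewhere. Cdh1 was the only 1 of these 6 markers over 1 CPM in HCmel12, and Krt5, Krt14, Krt8 and Krt18 had at most 3 counts there. The part of Kdr and Cdh1 in the HCmel12 levels was not tested.

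Collagen genes made up far more of the counts in D4M than in the other 4 lines. The 44 collagen genes took 0.607% ± 0.0666 (SD, n = 5) of all counts in D4M, 0.0375% ± 0.00934 in WT31, 0.0293% ± 0.00264 in HCmel12, 0.0265% ± 0.00703 in RET and 0.0214% ± 0.00232 in B16F10 luc2. The lowest D4M library (0.527%) lay above the highest library of any other line, a WT31 library at 0.0532%. The 11 laminin genes took 0.142% ± 0.00742 in D4M, 0.0872% ± 0.0105 in WT31, 0.0441% ± 0.00297 in HCmel12, 0.0293% ± 0.00213 in RET and 0.0273% ± 0.000777 in B16F10 luc2. On average laminin genes took more counts than collagen genes in WT31, B16F10 luc2, RET and HCmel12, and fewer in D4M. These are shares of counts, which longer transcripts raise.

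**Figure D1:**
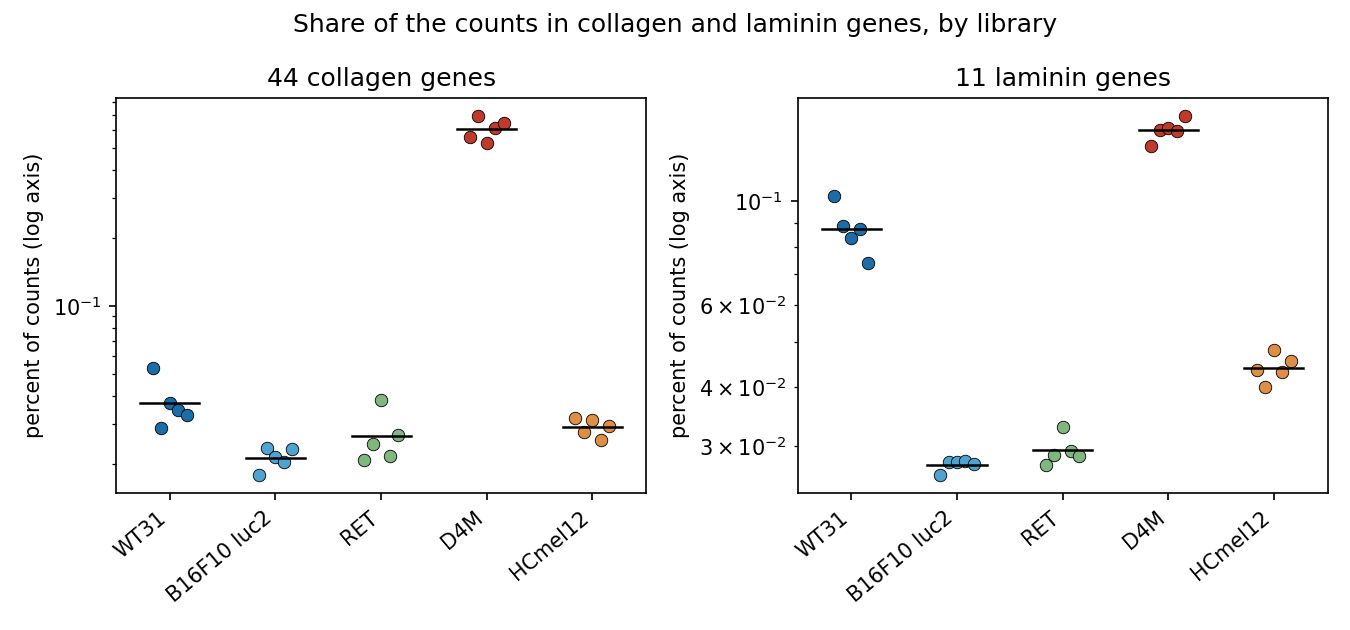
Percent of all counts that fell on the 44 collagen genes (left) and the 11 laminin genes (right) in each of the 25 libraries, on a log axis. Points are libraries and bars are line means. The 5 D4M libraries lie at 0.527% to 0.693% for collagens, above all libraries of the other lines.

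Most of these genes differed between any pair of lines, as did most genes in general. In a limma test with Benjamini-Hochberg adjustment, 40 of the 41 tested genes differed between WT31 and D4M (background: 76.1% of all genes tested), 37 between B16F10 luc2 and D4M (77.7%) and 37 between RET and D4M (77.1%). HCmel12 differed from WT31 in 30 genes (70.4%), from RET in 26 (67.2%) and from B16F10 luc2 in 26 (69.1%). Between the remaining pairs, 36 differed between D4M and HCmel12 (72.5%), 32 between WT31 and B16F10 luc2 (72.8%), 30 between WT31 and RET (73.2%) and 22 between B16F10 luc2 and RET (51.5%). Outside the comparisons with D4M these shares lay between 53.7% and 78.0% of the 41 genes and near the background. The direction was uneven in the comparisons with D4M. In WT31, 16 of 41 genes were higher (background 37.5%) and 24 lower (38.6%) than in D4M. In B16F10 luc2 9 were higher (38.8%) and 28 lower (38.9%), and in RET 9 were higher (38.8%) and 28 lower (38.3%). D4M had 24 higher (36.8%) and 12 lower (35.7%) than HCmel12. In relation to HCmel12, WT31 had 18 higher (36.1%) and 12 lower (34.3%), B16F10 luc2 10 higher (35.3%) and 16 lower (33.8%), and RET 13 higher (34.0%) and 13 lower (33.3%). WT31 had 18 higher and 14 lower than B16F10 luc2 (36.4% and 36.4%) and 19 higher and 11 lower than RET (36.8% and 36.4%), and B16F10 luc2 had 7 higher and 15 lower than RET (25.2% and 26.2%). The median log2 difference of the 41 genes was -2.0 for WT31, -2.23 for B16F10 luc2 and -2.42 for RET against D4M, where the median of all genes lay between -0.01 and 0.01. The 3 comparisons share the D4M libraries.

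**Figure D2:**
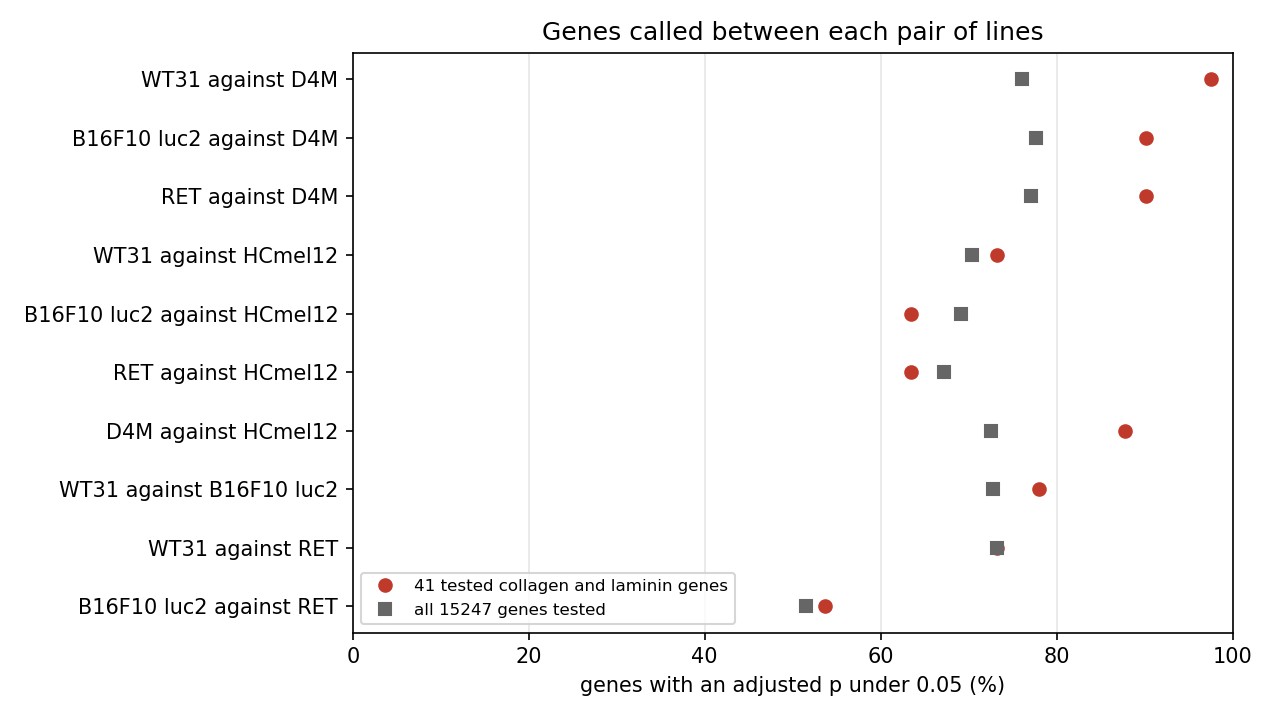
Percent of genes with an adjusted p under 0.05 between each pair of lines, for the 41 tested collagen and laminin genes (circles) and for all 15247 genes tested (squares). The circles lie furthest to the right of the squares in the comparisons that include D4M, and both are lowest between B16F10 luc2 and RET (53.7% and 51.5%).

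More of these genes peaked in D4M than in any other line. In D4M 20 of the 41 genes were significantly higher than in each of the 4 other lines (background 20% of all genes), and 7 were lower than in all 4 (15.7%). Some genes passed the filter on low counts only through D4M, among them Col3a1, Col5a2, Col6a2 and Col4a6. Their direction followed from the filter, and they also enter the counts and medians against D4M given above. The same holds for Lama1 through WT31 and Lama3 through HCmel12. In WT31 6 genes were higher than in all others (background 13.8%), in HCmel12 3 (9.56%), in B16F10 luc2 2 (8.81%) and in RET 0 (7.07%). The genes highest in WT31 were Col11a1, Col5a3, Col23a1, Lama1, Lama4 and Lamb2, those highest in HCmel12 were Col10a1, Col14a1 and Lama3, and those highest in B16F10 luc2 were Col4a4 and Col9a2. Lower than in all 4 other lines were 5 genes in B16F10 luc2 (6.83%), namely Col4a1, Col4a2, Col11a1, Col18a1 and Lama5, 3 in WT31 (11.1%), namely Col27a1, Col4a5 and Col5a1, 3 in HCmel12 (6.85%), namely Col16a1, Col1a2 and Col5a3, and Lamb1 in RET (5.06%). Several of these places rested on a call that was lost when 1 library was left out. The 5 genes of B16F10 luc2 fell to 3 without B16F10 luc2 replicate 4, where Col4a2 and Col18a1 were lost. Col4a2 was also lost without B16F10 luc2 replicate 1 or 3 or RET replicate 3, Col18a1 without RET replicate 5, and Col16a1 left the genes of HCmel12 without HCmel12 replicate 1 or 2. Without HCmel12 replicate 5 the genes lowest in RET were 2, Lamb1 and Col4a4, and without RET replicate 1 the gene Col11a2 was highest in RET. With TPM and a pseudocount of 1, Col11a1, Col18a1 and Lama5 were no longer lower in B16F10 luc2 than in all others, nor was Col16a1 in HCmel12. Under the same setting Col14a1, Col9a1 and Col9a3 were no longer lower, and Col4a5 and Lamc1 no longer higher, in D4M than in all others.

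**Figure D3:**
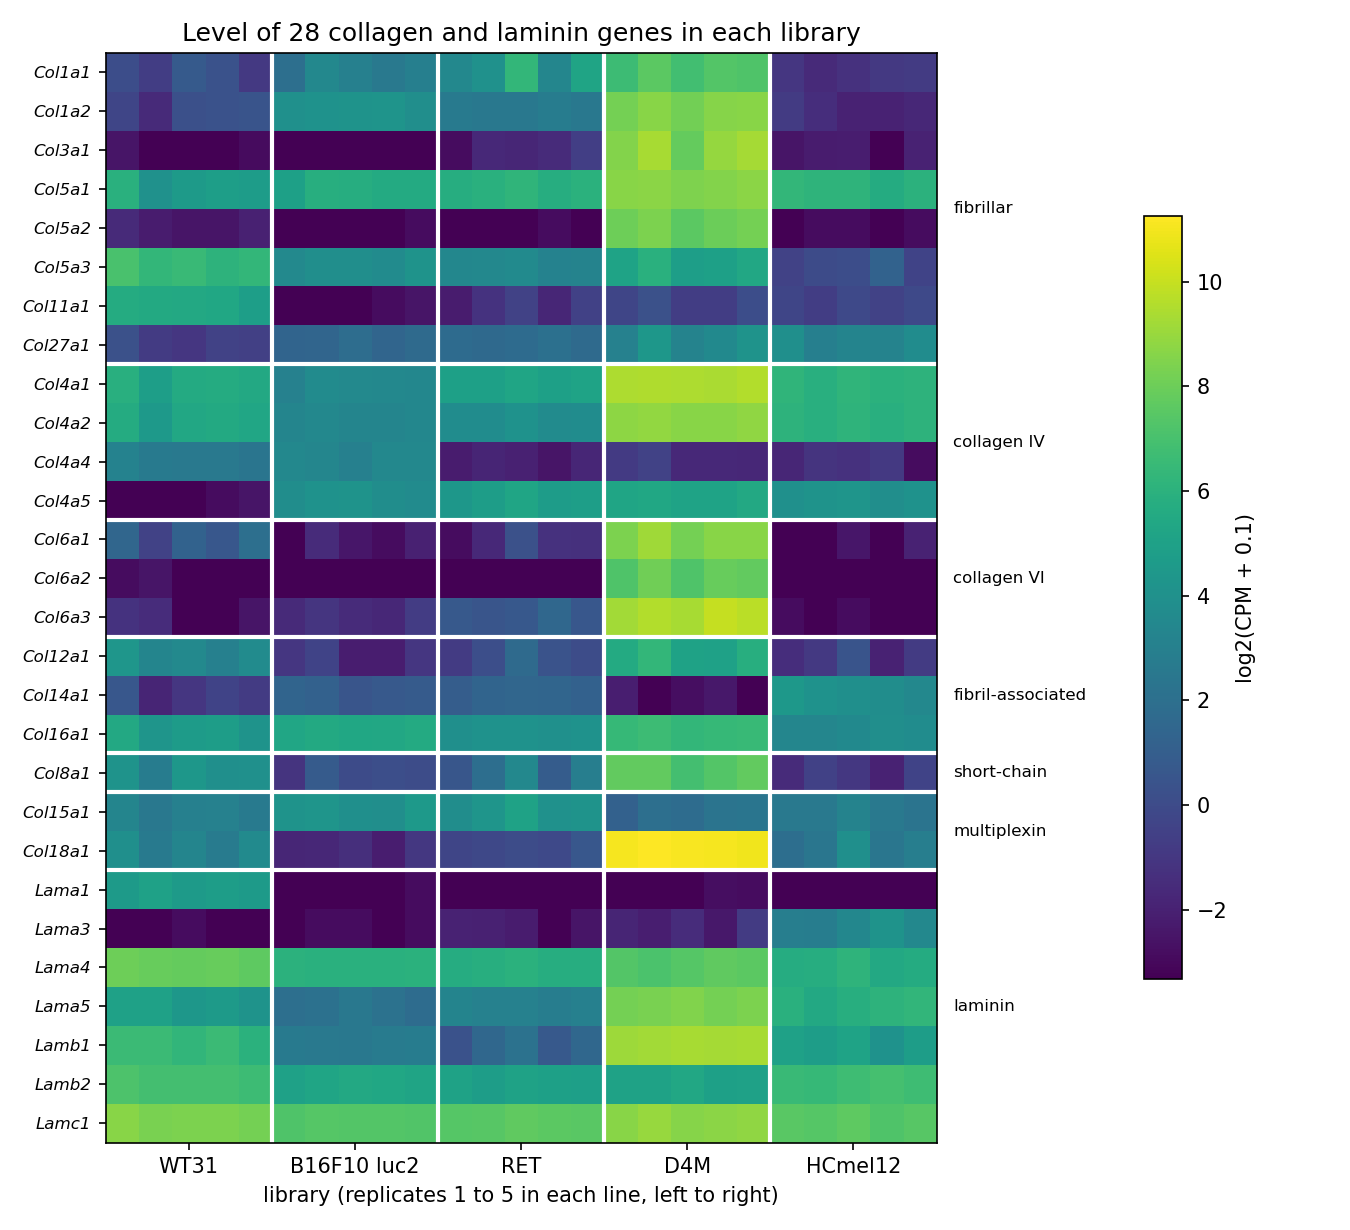
Level of the 28 genes that reached a line mean of 10 CPM, as log2(CPM + 0.1), in each of the 25 libraries. Rows are genes grouped by structural class, columns are libraries in replicate order within each line, and brighter colors are higher levels. The D4M block is brightest for the fibrillar chains Col1a1, Col1a2, Col3a1 and Col5a2 and for collagen VI, while Lama1 and Col11a1 stand out in WT31 and Lama3 and Col14a1 in HCmel12.

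The fibrillar genes Col3a1 and Col5a2 were nearly confined to D4M in this set of lines, and the type I chains were highest in D4M and also present in RET and B16F10 luc2. Col3a1 encodes the chain of collagen III, which accompanies collagen I in soft connective tissue, and Col5a2 encodes a chain of collagen V, which starts and limits fibril growth. Col3a1 lay at 371, 651, 227, 491 and 622 CPM in D4M replicates 1 to 5, while the 20 libraries of the other lines lay at 0 to 0.540 CPM. Col5a2 lay at 265, 331, 189, 250.2 and 295 CPM in D4M and at 0 to 0.228 CPM elsewhere. Every D4M library was far above all other libraries for both genes. Col3a1 was 1904-fold higher in D4M than in RET, its next line (log2 difference 11, SE 0.81, adjusted p = 2.3e-12), and Col5a2 was 2066-fold higher in D4M than in WT31 (log2 difference 10.88, SE 0.46, adjusted p = 3.1e-17). The size of both folds is uncertain because the lower line had few counts. RET libraries held 1 to 14 counts of Col3a1 and WT31 libraries 2 to 6 counts of Col5a2. These 2 genes are neighbours in tail-to-tail orientation on chromosome 1, 24614 bases apart.

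Col1a1 and Col1a2 encode the chains of collagen I, the main fiber of skin and bone, a trimer that holds more of the Col1a1 than of the Col1a2 chain. Col1a2 lay at 294, 407, 282, 392 and 397 CPM in D4M, at 15.7, 17.2, 17.5, 18.4 and 14.6 CPM in B16F10 luc2 and at 6.33, 5.61, 5.63, 6.77 and 5.67 CPM in RET. In WT31 and HCmel12 it lay at 0.228 to 1.29 and 0.162 to 0.482 CPM. The order of the lines was D4M, B16F10 luc2, RET, WT31 and HCmel12, and the replicates of neighbours overlapped only between the last 2. Col1a2 was 21.2-fold higher in D4M than in B16F10 luc2 (log2 difference 4.39, SE 0.12, adjusted p = 7.3e-21) and 2.78-fold higher in B16F10 luc2 than in RET (log2 difference 1.47, SE 0.19, adjusted p = 2.6e-07).

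Col1a1 showed another order and a wide spread in RET. It lay at 100.4, 188, 112, 166 and 152 CPM in D4M, at 11.1, 16.1, 81.0, 10.2 and 35.7 CPM in RET and at 3.97, 11.2, 7.92, 5.78 and 7.77 CPM in B16F10 luc2. RET replicates 3 and 5 stood above the other 3 RET libraries, while Col1a2 was even in the same libraries, and the lower RET libraries overlapped B16F10 luc2. In WT31 (0.443 to 1.63 CPM) and HCmel12 (0.239 to 0.488 CPM) Col1a1 was low. It was 4.66-fold higher in D4M than in RET (log2 difference 2.66, SE 0.32, adjusted p = 3e-08) and 4.21-fold higher in RET than in B16F10 luc2 (log2 difference 1.68, SE 0.48, adjusted p = 0.0044). These folds rest in part on RET replicate 3. Without it Col1a1 was 7.86-fold higher in D4M than in RET and 2.50-fold higher in RET than in B16F10 luc2. Per length, the ratio of Col1a1 to Col1a2 TPM (transcripts per 1000000, scaled by length) was 0.373 ± 0.0313 in D4M (n = 4), 0.393 ± 0.0979 in B16F10 luc2 (n = 5) and 4.53 ± 4.85 in RET (n = 5), with a range of 1.2 to 12.8 in RET. The RET mean also rests in part on replicate 3 (12.8), as the other RET libraries lay at 1.2 to 4.88. The log2 count ratio differed between RET and D4M (exact permutation p = 0.0079, adjusted p = 0.01) and between RET and B16F10 luc2 (exact permutation p = 0.0079, adjusted p = 0.01), and it was not shown to differ between B16F10 luc2 and D4M (exact permutation p = 0.85, adjusted p = 0.85). These ratio tests were run on 4 chain pairs chosen after the levels were seen, 33 tests in all, and their smallest possible p is 0.0079.

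Col5a1 and Col5a3, which encode the other chains of collagen V, were present in more lines than Col5a2. Col5a1 lay at 395, 426, 349, 379 and 417 CPM in D4M, 50.1 to 80.5 in HCmel12, 53.2 to 74.9 in RET, 30.5 to 56.1 in B16F10 luc2 and 16.6 to 59.8 in WT31. D4M stood apart from the rest, 5.79-fold above HCmel12 (log2 difference 2.55, SE 0.18, adjusted p = 1.5e-12), while HCmel12 and RET overlapped and were not shown to differ (log2 difference 0.14, 95% interval -0.25 to 0.53, intervals here and below being unadjusted). WT31 was lowest, but its replicate 1 lay at 59.8 CPM, inside the ranges of RET and HCmel12 and above that of B16F10 luc2. Col5a3 had its maximum in WT31 instead, at 131, 80.4, 93.5, 68.8 and 79.5 CPM, followed by D4M at 35.1, 60.0, 28.5, 31.1 and 42.5 CPM. These 2 lines did not overlap (2.30-fold higher in WT31; log2 difference 1.22, SE 0.16, adjusted p = 1.6e-07). In B16F10 luc2 and RET Col5a3 lay at 11.4 to 18 and 8.77 to 12.4 CPM, and in HCmel12 it was lowest with 0.642 to 2.26 CPM, 9.57-fold below RET (log2 difference 3.39, SE 0.47, adjusted p = 5e-07).

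Col11a1 and Col27a1 are fibrillar genes best known from cartilage. Col11a1 lay at 49.0, 46.2, 43.6, 40.8 and 28.2 CPM in WT31 and at 0 to 1.11 CPM in all other libraries, with no overlap (53.5-fold higher than in D4M; log2 difference 5.74, SE 0.33, adjusted p = 1.9e-14). In B16F10 luc2 it had at most 2 counts per library. Col27a1 lay at 8.33, 20.7, 9.0, 12.0 and 18 CPM in D4M and at 15.1, 7.56, 9.25, 9.21 and 13.4 CPM in HCmel12, which overlapped (log2 difference 0.28, 95% interval -0.13 to 0.69, adjusted p = 0.21). In RET (3.02 to 4.05 CPM), B16F10 luc2 (2.50 to 3.63 CPM) and WT31 (0.388 to 1.11 CPM) it was lower than in both LM-melanoma lines without overlap. HCmel12 was 3.24-fold above RET (log2 difference 1.65, SE 0.26, adjusted p = 4.7e-06).

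Collagen VI, which forms beaded microfibrils around cells, was high in D4M alone among these lines. Col6a1 lay at 335, 583, 299, 404 and 410.3 CPM in D4M, Col6a2 at 149.7, 270.2, 152, 233 and 216 CPM and Col6a3 at 597, 766, 649.8, 984 and 869 CPM. The highest library outside D4M reached 3.95 CPM for Col6a1 (WT31), 0.0760 CPM for Col6a2 (WT31) and 2.80 CPM for Col6a3 (RET). No counts of Col6a2 were found in B16F10 luc2, RET and HCmel12. The 3 classical chains, which assemble into 1 molecule, were together high in D4M and elsewhere at 28 counts or fewer per library, with the exceptions of Col6a1 in WT31 (0.646 to 3.95 CPM) and Col6a3 in RET (1.34 to 2.80 CPM). Col6a1 was 185-fold higher in D4M than in WT31 (log2 difference 7.70, SE 0.38, adjusted p = 5.8e-16), Col6a2 was at least 1791-fold higher (log2 difference 12.57, SE 0.69, adjusted p = 5.7e-15), and Col6a3 was 447-fold higher than in RET (log2 difference 8.83, SE 0.29, adjusted p = 1.6e-19). In TPM the chains of D4M lay at 139 ± 37.6 for Col6a1, 72.8 ± 16.4 for Col6a2 and 171 ± 36.2 for Col6a3 (SD, n = 4). Col6a2 and Col6a1 are neighbours on chromosome 10, 85161 bases apart, and Col18a1 follows 326009 bases further. The 3 later members Col6a4, Col6a5 and Col6a6 had at most 2 counts in any library.

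Collagen IV chains were expressed in all 5 lines, with the pair Col4a1 and Col4a2, the common network chains of basement membranes, highest in D4M. Col4a1 lay at 699.7, 724, 700.0, 664 and 749 CPM in D4M, 72.9, 59.2, 74.1, 62.2 and 69.4 in HCmel12, 59.1, 29.0, 47.0, 49.9 and 44.5 in WT31, 30.4, 31.5, 37.5, 30.8 and 34.3 in RET and 8.41, 13.1, 11.4, 11.1 and 10.6 in B16F10 luc2. Col4a2 lay at 443, 467, 405, 403 and 459 CPM in D4M, 67.2, 57.6, 69.9, 59.0 and 68.3 in HCmel12, 49.3, 23.7, 41.7, 45.7 and 39.9 in WT31, 13.3, 13.4, 17.3, 13.2 and 13.5 in RET and 9.64, 10.9, 9.69, 9.90 and 10.5 in B16F10 luc2. Both genes followed the same order of lines, and for both the LM-melanoma lines lay above the HIM-melanoma lines, HCmel12 and WT31 differing without overlap. Col4a1 was 10.5-fold higher in D4M than in HCmel12 (log2 difference 3.39, SE 0.11, adjusted p = 9.2e-20) and 1.47-fold higher in HCmel12 than in WT31 (log2 difference 0.59, SE 0.12, adjusted p = 7.1e-05). Col4a2 was 6.76-fold higher in D4M than in HCmel12 (log2 difference 2.76, SE 0.11, adjusted p = 6.6e-18) and 1.61-fold higher in HCmel12 than in WT31 (log2 difference 0.72, SE 0.12, adjusted p = 6.3e-06).

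The paired genes were not in the same ratio in every line. The ratio of Col4a1 to Col4a2 TPM was 2.66 ± 0.112 in RET, 1.95 ± 0.112 in D4M (n = 4), 1.37 ± 0.405 in B16F10 luc2, 1.36 ± 0.140 in WT31 and 1.26 ± 0.0782 in HCmel12 (SD, n = 5 each). RET and D4M stood above the other 3 lines in the log2 count ratio, and all 6 of these comparisons gave the smallest possible value (exact permutation p = 0.0079, adjusted p = 0.01). RET also differed from D4M (exact permutation p = 0.0079, adjusted p = 0.01), and WT31 lay above HCmel12 by 0.13 on the log2 scale (exact permutation p = 0.0079, adjusted p = 0.01). B16F10 luc2 was not shown to differ from WT31 (exact permutation p = 0.31, adjusted p = 0.33) or from HCmel12 (exact permutation p = 0.78, adjusted p = 0.8). The trimer of the common network holds more of the Col4a1 than of the Col4a2 chain.

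Col4a4 and Col4a5 encode chains of the collagen IV networks known from kidney, cochlea and eye. Col4a4 lay at 11.1, 10.4, 8.04, 10.9 and 11 CPM in B16F10 luc2 and at 8.80, 6.15, 5.78, 5.89 and 4.88 CPM in WT31, with WT31 replicate 1 inside the range of B16F10 luc2, whereas RET, D4M and HCmel12 lay at 0.0407 to 0.622 CPM. The former 2 lines did not overlap the latter 3 (18.1-fold higher in WT31 than in D4M; log2 difference 4.2, SE 0.35, adjusted p = 3.3e-11). Its head-to-head partner Col4a3, singled out after its values were seen, had at most 12.3 estimated counts in any library and was not tested. Col4a5 lay at 38.3, 41.3, 34.8, 34.5 and 44.3 CPM in D4M, 20.8, 27.6, 38.4, 26.5 and 28.6 in RET, 14.8 to 19.1 in HCmel12 and 12.7 to 17.4 in B16F10 luc2. In WT31 it had at most 2 counts per library, at least 132-fold lower than in B16F10 luc2 (log2 difference 8.84, SE 0.61, adjusted p = 7.6e-13). D4M and RET overlapped in 1 RET library, replicate 3, and differed by 0.47 on the log2 scale (adjusted p = 0.00056), a call that was lost with TPM values. HCmel12 and B16F10 luc2 were not shown to differ (log2 difference 0.17, 95% interval -0.12 to 0.46).

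**Figure D4:**
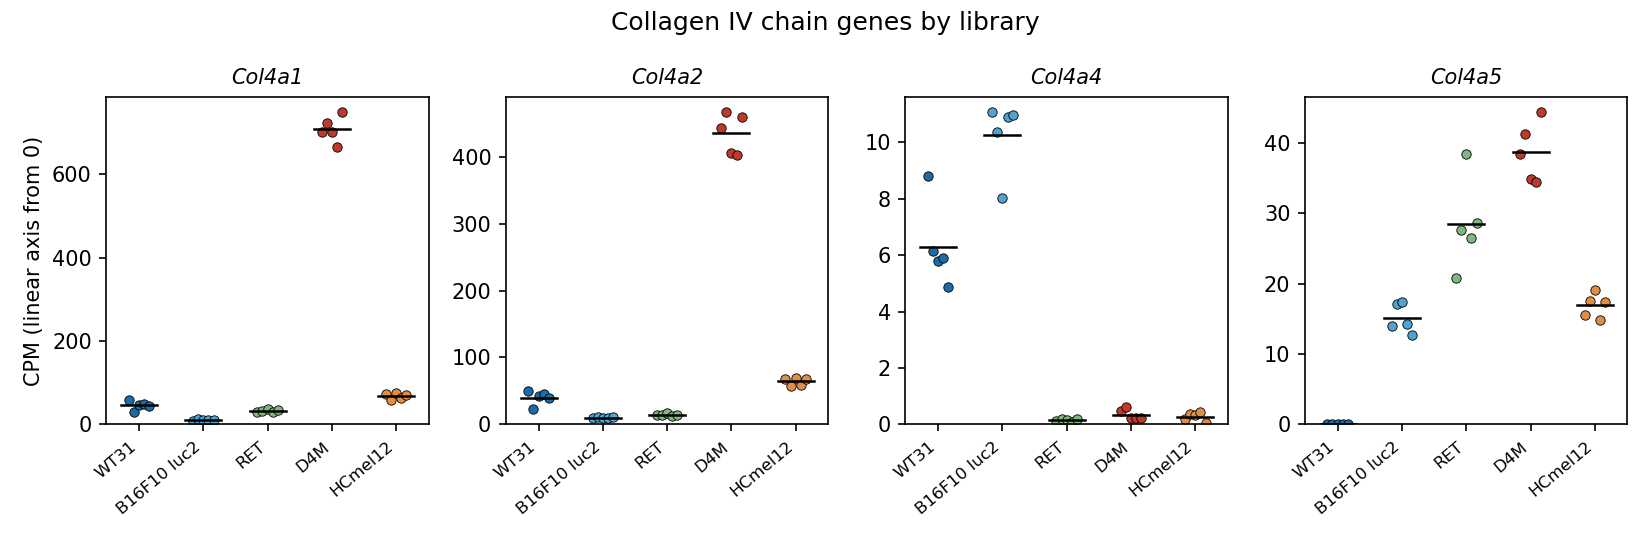
CPM of the 4 collagen IV chain genes in each library, on linear axes from 0. Points are libraries and bars are line means. Col4a1 and Col4a2 are highest in D4M (means 707 and 435 CPM), Col4a4 is high in B16F10 luc2 and WT31, and Col4a5 is at 0 to 2 counts in WT31.

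Col18a1 had the largest collagen level of any line, in D4M. It encodes the basement membrane collagen XVIII, from whose end the angiogenesis inhibitor endostatin is released. Col18a1 (chr10:77052178-77166548, minus strand) lay at 2105, 2424, 2210.2, 2089 and 1988 CPM in D4M and at 15.1, 6.38, 9.93, 6.69 and 12.6 CPM in WT31. HCmel12 lay at 3.77, 5.10, 15.4, 5.17 and 7.44 CPM, with replicate 3 above the other 4, RET at 0.712 to 1.47 CPM and B16F10 luc2 at 0.124 to 0.423 CPM. D4M was 214-fold above WT31 (log2 difference 7.81, SE 0.19, adjusted p = 3.3e-22), while WT31 and HCmel12 overlapped (log2 difference 0.57, 95% interval 0.04 to 1.10, adjusted p = 0.053). Per length it was the highest of the 44 collagen genes in D4M, at 622 ± 52.4 TPM (SD, n = 4), ahead of Col4a1 at 172 ± 12.2 and Col6a3 at 171 ± 36.2 TPM. Its relative Col15a1, which encodes the multiplexin of the outer basement membrane zone, had a different order. Col15a1 lay at 13.8, 18.9, 34.0, 16.7 and 17.6 CPM in RET and 18.1, 18.9, 14.9, 14.6 and 22.5 CPM in B16F10 luc2, which overlapped and were not shown to differ (log2 difference 0.12, 95% interval -0.24 to 0.49), and whose sign turned with TPM values. WT31 (5.58 to 9.83 CPM), HCmel12 (4.8 to 8.92 CPM) and D4M (2.21 to 4.98 CPM) were lower. D4M was lowest, but its difference from HCmel12 was small against the spread (log2 difference 0.70, SE 0.31, adjusted p = 0.045), and the call was lost without any of 10 libraries, with the highest adjusted p without D4M replicate 1 (0.15) and HCmel12 replicate 3 (0.12).

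Col8a1, a short-chain collagen of vessel walls and the cornea, lay at 214, 212, 119, 166 and 215 CPM in D4M, 17.8, 6.84, 21.1, 15.1 and 15.6 in WT31 and 1.38, 3.68, 11.2, 1.76 and 7.53 in RET. In RET replicates 3 and 5 were again above the other libraries, as for Col1a1. B16F10 luc2 lay at 0.357 to 1.74 CPM and HCmel12 at 0.162 to 0.651 CPM. D4M was 12.1-fold above WT31 without overlap (log2 difference 3.66, SE 0.26, adjusted p = 8.9e-13).

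Fibril-associated collagens, which decorate fibrils and link them to other matrix, did not share 1 order. Col12a1 lay at 48.3, 80.2, 33.6, 32.7 and 55.2 CPM in D4M and at 19.8, 9.72, 11.4, 8.0 and 13.0 CPM in WT31, and the 15 libraries of B16F10 luc2, RET and HCmel12 lay at 0.124 to 3.19 CPM. D4M exceeded WT31 4.04-fold (log2 difference 2.0, SE 0.24, adjusted p = 3.1e-08) and WT31 exceeded RET 9.0-fold (log2 difference 3.36, SE 0.52, adjusted p = 2.1e-06). Col16a1 was present in all lines, at 79.4 to 102 CPM in D4M, 39.6 to 47.5 in B16F10 luc2, 17.6 to 43.5 in WT31, 15.3 to 17.4 in RET and 10.1 to 14.5 in HCmel12. Among these, B16F10 luc2 and WT31 overlapped through WT31 replicate 1, and D4M was 2.07-fold above B16F10 luc2 (log2 difference 1.05, SE 0.13, adjusted p = 3.8e-08). Col14a1 was highest in HCmel12, at 21.9, 17, 15.4, 14.1 and 10.9 CPM, 6.69-fold above RET (log2 difference 2.71, SE 0.24, adjusted p = 1.8e-10). D4M had at most 3 counts of Col14a1 per library, and RET and B16F10 luc2 (1.86 to 2.72 and 1.32 to 2.46 CPM) overlapped. In addition, the collagen IX genes Col9a1, Col9a2 and Col9a3 and the gene Col20a1 stayed below 10 CPM on average in all lines and were lowest in D4M. Of the 7 tested genes of this class, Col14a1 and these 4 were lower in D4M than in each HIM-melanoma line, 5 genes against a background of 20.2% of all genes. The Col14a1 call between WT31 and D4M was lost with TPM and a pseudocount of 1 (log2 difference 0.24, adjusted p = 0.073). In fits of 2 lines Col14a1, Col9a1, Col9a2 and Col9a3 were no longer called lower in D4M than in all other lines.

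Laminin alpha chains differed between the lines in which of them were present. The alpha chain determines which receptors a laminin binds. Lama4, the chain of endothelial and mesenchymal laminins, lay at 264, 232, 223, 234 and 200.4 CPM in WT31 and 164, 139, 172, 206 and 194 CPM in D4M, followed by B16F10 luc2 at 60.5 to 66.3, RET at 51.7 to 63.5 and HCmel12 at 43.6 to 71.3 CPM. WT31 and D4M overlapped in 1 library each way but differed (1.32-fold; log2 difference 0.41, SE 0.10, adjusted p = 0.00055), D4M was 2.81-fold above B16F10 luc2 (log2 difference 1.48, SE 0.10, adjusted p = 6.4e-13), and the last 3 lines overlapped. Lama5, the chain of most adult basement membranes, lay at 298, 317, 351, 291 and 324 CPM in D4M, 60.1, 43.8, 55.5, 68.5 and 77.2 in HCmel12, 32.8, 31.6, 20.6, 24.6 and 17.8 in WT31, 9.37, 8.36, 8.39, 7.09 and 7.87 in RET and 3.93, 4.27, 5.57, 4.33 and 3.50 in B16F10 luc2. None of these neighbours overlapped, and both LM-melanoma lines lay above the 3 HIM-melanoma lines. D4M was 5.18-fold above HCmel12 (log2 difference 2.40, SE 0.12, adjusted p = 7.6e-16) and HCmel12 2.39-fold above WT31 (log2 difference 1.27, SE 0.14, adjusted p = 6.8e-09).

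Lama1 and Lama3 each exceeded 1 CPM in 1 line only. Lama1, the chain of early embryonic basement membranes, lay at 24.9, 32.7, 24.7, 27.6 and 24.7 CPM in WT31. The other 20 libraries held at most 1 count of Lama1, which puts WT31 at least 202-fold above D4M (log2 difference 9.60, SE 0.36, adjusted p = 1.7e-18). Lama3, the alpha chain of the laminin that anchors epidermal cells, lay at 7.26, 7.25, 10.5, 17.5 and 11 CPM in HCmel12 and at 0 to 0.469 CPM elsewhere (46.9-fold higher in HCmel12 than in D4M; log2 difference 5.53, SE 0.48, adjusted p = 7.2e-11). Lamb3, which encodes the beta chain of this laminin and was singled out after its values were seen, had at most 26 counts in any library, a HCmel12 library, and was not tested.

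Lamb1 and Lamb2 encode the alternative beta chains and differed in the place of D4M, which was highest of the 5 lines for Lamb1 and below WT31, HCmel12 and B16F10 luc2 on average for Lamb2. Lamb1 lay at 563, 587, 651, 619 and 645 CPM in D4M, 97.2, 97.8, 77.6, 97.3 and 62.9 in WT31, 32.1, 27.1, 34.9, 17.2 and 27.1 in HCmel12, 6.43, 5.85, 5.57, 6.69 and 6.84 in B16F10 luc2 and 1.19, 2.86, 4.37, 1.60 and 2.78 in RET. All 5 lines were separated without overlap, and D4M exceeded RET by 8.03 on the log2 scale (SE 0.29, adjusted p = 1.1e-18), a ratio of means of 239-fold. Lamb2 lay at 145, 116, 119.5, 117 and 103 CPM in WT31, 92.2, 86.4, 104, 122 and 104 in HCmel12, 31.6, 38.1, 44.4, 41.1 and 35.6 in B16F10 luc2, 32.9, 33.5, 42.6, 31.3 and 32.4 in D4M and 33.0, 27.2, 33.8, 30.7 and 29.9 in RET. WT31 and HCmel12 overlapped (log2 difference 0.24, SE 0.09, adjusted p = 0.025, a call lost without WT31 replicate 1, with adjusted p = 0.1, without HCmel12 replicate 1 or 2, with DESeq2 and in a fit of these lines alone), as did B16F10 luc2, D4M and RET. HCmel12 was 2.67-fold above B16F10 luc2 (log2 difference 1.42, SE 0.10, adjusted p = 3.1e-12). Per length, the ratio of Lamb1 to Lamb2 TPM was 12.3 ± 2.74 in D4M (n = 4), 0.487 ± 0.0814 in WT31, 0.187 ± 0.0555 in HCmel12, 0.117 ± 0.0520 in B16F10 luc2 and 0.0648 ± 0.0273 in RET (SD, n = 5 each). D4M was the only line with more Lamb1 than Lamb2 transcript, and its log2 count ratio differed from that of each other line (exact permutation p = 0.0079, adjusted p = 0.01 in all 4 comparisons). HCmel12 and B16F10 luc2 were not shown to differ after adjustment (exact permutation p = 0.048, adjusted p = 0.052).

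The gamma chain Lamc1, which is part of most laminins, had the smallest ratio of highest to lowest line mean among the 28 genes named with values. Lamc1 lay at 397, 503, 386, 421 and 460.0 CPM in D4M, 401, 324, 337, 334 and 294 in WT31, 167, 176, 204, 193 and 183 in RET, 181, 171, 200.3, 151 and 178 in HCmel12 and 151, 169, 159.6, 166 and 158 in B16F10 luc2. D4M and WT31 overlapped and both lay above the other 3 lines. The difference between D4M and WT31 was 0.36 on the log2 scale with a call (adjusted p = 0.00024), but the call was lost when only library size was used for scaling (log2 difference 0.13, adjusted p = 0.13) and the sign turned with TPM values (log2 difference -0.12). WT31 was 1.83-fold above RET (log2 difference 0.87, SE 0.08, adjusted p = 3.3e-10). RET and HCmel12 were not shown to differ (log2 difference 0.07, 95% interval -0.10 to 0.24).

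**Figure D5:**
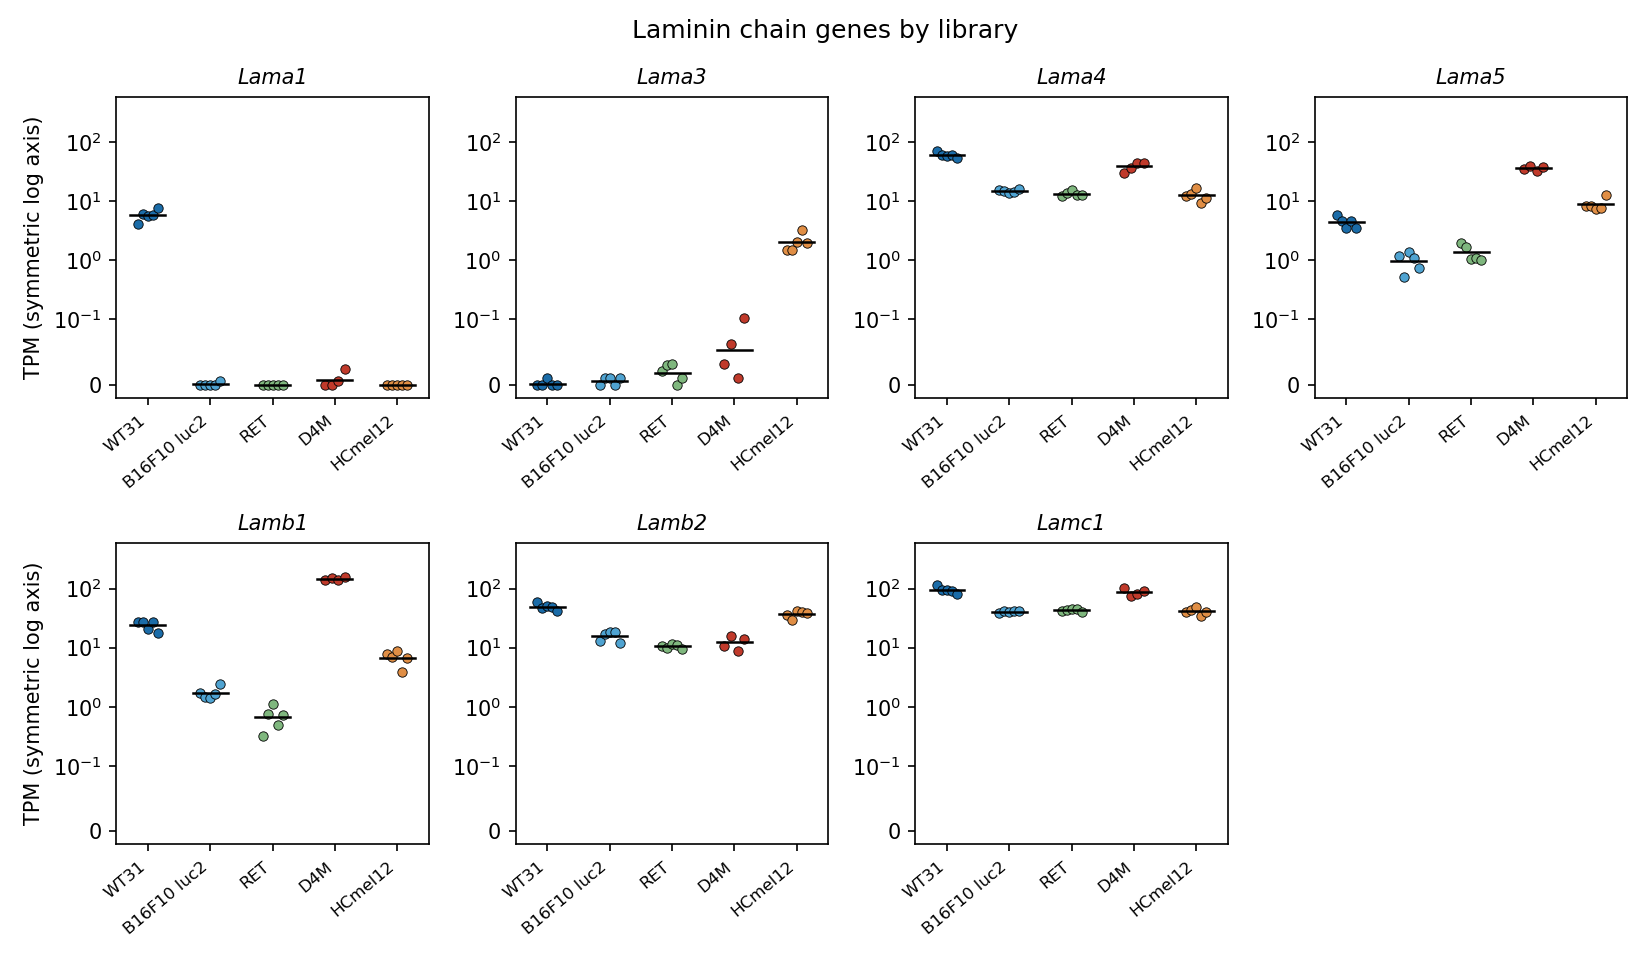
TPM of the 7 laminin chain genes in each library on a symmetric log axis, linear below 0.1 (24 libraries, 4 of D4M). Points are libraries and bars are line means. Lama1 stands out in WT31 (mean 5.88 TPM), Lama3 in HCmel12 (mean 2.07 TPM) and Lamb1 in D4M (mean 146 TPM), while the line means of Lamc1 lie between 40.8 and 94.8 TPM.

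Seen per line and per length, the chain makeup of the laminin transcripts differed. Lamc1 had the highest TPM of the laminin genes in WT31 (94.8 ± 12.6), B16F10 luc2 (40.8 ± 1.51), RET (43.4 ± 2.04) and HCmel12 (42.0 ± 5.16), but in D4M Lamb1 (146 ± 7.99) exceeded Lamc1 (87.3 ± 13.0). The ratio of Lama4 to Lama5 TPM was 17.2 ± 7.41 in B16F10 luc2, 13.8 ± 1.75 in WT31 and 10.6 ± 3.31 in RET. In HCmel12 (1.49 ± 0.511) and D4M (1.07 ± 0.228, n = 4) the ratio lay near 1. The log2 count ratio of each HIM-melanoma line differed from that of each LM-melanoma line (exact permutation p = 0.0079, adjusted p = 0.01 in all 6 comparisons), and D4M and HCmel12 also differed (exact permutation p = 0.032, adjusted p = 0.036). The HIM-melanoma lines differed from each other as well (exact permutation p = 0.0079 to 0.024, adjusted p = 0.01 to 0.028).

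For the question which genes separate HIM- from LM-melanoma, genes were called commonly regulated where all 3 HIM-melanoma lines differed in 1 direction from both D4M and HCmel12. This held for 7 of the 41 genes (17.1%, background 12.9% of all genes tested). Genes such as Col4a1, Col4a2, Col25a1, Col27a1 and Lama5 were lower in HIM-melanoma and Col9a2 was higher, 6 genes in the lower direction against a background of 6.4% and 1 in the higher direction against 6.53%. The 4 of them that are named with values, Col4a1, Col4a2, Col27a1 and Lama5, had no library of HIM-melanoma inside the range of LM-melanoma. The tests between the same libraries chose these genes, and the share of all genes without overlap was not counted. The lack of overlap is therefore a description and adds no support. For Lama5 the highest HIM-melanoma library lay at 32.8 CPM and the lowest LM-melanoma library at 43.8 CPM. For Col4a1 these values were 59.1 and 59.2 CPM, so that the lines nearly touched. The other 34 tested genes did not meet this rule.

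Genes that make, process and bind these chains were compared by lists. The background for these lists is the share of all genes tested, 38.6% (WT31), 38.9% (B16F10 luc2) and 38.3% (RET) for a lower and 37.5%, 38.8% and 38.8% for a higher level than in D4M, and 12.9% for common regulation. Among 20 genes for modification and folding of collagen chains in the endoplasmic reticulum, a lower level than in D4M passed the test for 13 genes (WT31), 14 genes (B16F10 luc2) and 14 genes (RET) and a higher level for 4, 4 and 5 genes, and 4 (20%) were commonly regulated. Fkbp10, a foldase for collagen, lay at 210.2 ± 19.9 CPM in D4M, 103 ± 4.48 in HCmel12, 15.0 ± 1.47 in WT31, 2.73 ± 0.223 in RET and 1.03 ± 0.283 in B16F10 luc2 (SD, n = 5). Plod3 and Colgalt1, which hydroxylate and glycosylate lysines of collagen, were commonly lower in HIM-melanoma too, and P3h3 was commonly higher. Plod3 lay at 150.5 ± 12.7 CPM in HCmel12 and 121 ± 11.8 in D4M, against 60.7 ± 3.18 in WT31, the highest HIM-melanoma line.

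Among 11 tested genes for processing and cross-linking, a lower level than in D4M passed the test for 8 genes (WT31), 10 genes (B16F10 luc2) and 9 genes (RET) and a higher level for 2, 1 and 0 genes, and 1 was commonly regulated (9.09%, below the background). This was Pcolce, an enhancer of procollagen cleavage, with 545 ± 60.4 CPM in HCmel12, 323 ± 32.2 in D4M, 108 ± 12.2 in B16F10 luc2, 72.9 ± 3.06 in RET and 12.2 ± 3.32 in WT31. Among 13 tested partners of collagen IV and laminin in the basement membrane, a lower level than in D4M passed the test for 7 genes (WT31), 10 genes (B16F10 luc2) and 9 genes (RET) and a higher level for 5, 2 and 3 genes, of which the 5 genes of WT31 are a share near the background. Commonly regulated were 2 of the 13 (15.4%). Agrn (agrin) was commonly lower in HIM-melanoma, with 349 ± 22 CPM in D4M, 195 ± 18.8 in HCmel12 and 161 ± 19.8 in WT31, the highest HIM-melanoma line. Fbln1 (fibulin-1) was commonly higher, with 12.1 ± 3.79 CPM in D4M and 87.6 ± 12.6 in HCmel12 against 115 ± 15.3 in B16F10 luc2, the lowest HIM-melanoma line. For both genes libraries of the nearest lines overlapped, WT31 and HCmel12 for Agrn and B16F10 luc2 and HCmel12 for Fbln1. Of 8 tested fibril partners, 5 genes were lower than in D4M in WT31 and 5 each in RET and B16F10 luc2, and higher were 3 in WT31 and 1 each in RET and B16F10 luc2. Fn1 (fibronectin) was the 1 commonly regulated gene (12.5%, near the background), at 2127 ± 308 CPM in D4M and 1389.5 ± 301 in HCmel12 against 264 ± 108 in RET, 243 ± 75.2 in WT31 and 80.7 ± 14.9 in B16F10 luc2.

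Of the 27 genes that are not named with values, 13 were tested and 14 were not. The tested ones included Col2a1 and Col11a2 among fibrillar genes, Col4a6, Col9a1, Col9a2, Col9a3 and Col20a1, Col10a1, the transmembrane Col23a1 and Col25a1, Col7a1 and Col28a1. The 14 untested genes were Col24a1, Col4a3, Col6a4, Col6a5, Col6a6, Col19a1, Col22a1, Col8a2, Col13a1, Col17a1, Col26a1, Lama2, Lamb3 and Lamc3, and none of them had more than 44 counts in any library. No comparison between lines was made for them in the main fit. An alternative fit with all genes that had a count tested them. There Col26a1 was higher in WT31 than in all others, Lamc3 in B16F10 luc2 and Col24a1 in D4M, and Lama2 was lower in HCmel12 than in all others.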

How the data were processed

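RNA-seq of 25 libraries was analysed from gene tables that the authors deposited. According to the study's methods and the submitters' processing notes, reads were cleaned with Trim Galore 0.6.4 and assigned to GRCm38.p6 with kallisto. The notes and the methods give different versions of kallisto, so none is stated, and the annotation release is not given in the sources used here. The authors deposited estimated counts per gene without normalization, of which 24.5% to 26.6% per library were not whole, and TPM values scaled by transcript length. TPM of D4M replicate 1 was not used here. Symbols were assigned by Ensembl identifier through GENCODE M21 and a gene name table (55144 of 55385 genes).

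Counts were filtered with filterByExpr (edgeR 4.0.16), which kept 15247 genes, scaled with TMM factors and tested with voom and limma 3.58.1 (R 4.3.3) in 1 fit over all 25 libraries with a mean per line. Within each comparison the Benjamini-Hochberg adjustment ran over all genes tested, at a threshold of 0.05. CPM are TMM-scaled. The test was checked on simulated counts, with 100 genes each changed by a log2 difference of 1 or 2 in D4M. It recovered 99 and 100 of them. The changed genes had an expected count of at least 20 and 1 fixed spread. Genes near 0 counts in a line or with a wide spread were therefore not covered. A fold is a ratio of mean CPM, and where no library of the lower line exceeded 3 counts, the floor of 3 counts per library replaced it, which gives a lower bound. Ratios of 2 chains were compared on log2 count ratios by two-sided exact permutation of 10 libraries (252 arrangements), in lines with at least 20 counts of both genes in every library.

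Genes with a line mean of at least 10 CPM were named with values, and at most 4 commonly regulated genes of each further list. Results of 1 gene of the set are not reported here. The genes, lists and tests were chosen with earlier results of these data known. At most 2.18% of the 31-base sequences of any named gene's transcripts occur in other genes. Promoter windows are from RefSeq (GRCm38.p6). Alternatives were other scalings and filters, edgeR's quasi-likelihood test and DESeq2 1.42.0 on rounded counts, fits of 2 lines, a replicate block, log2 TPM with pseudocounts of 1 and 0.1, a log2 limit of 1, and leaving out each library.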

Additional observations from a re-analysis of the deposited data

Results flagged for a closer look

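In 107 combinations of a named gene and a line with more than 3 counts in every library, the highest or lowest of the 5 replicates was compared with the others by Dixon's criterion (critical value 0.71), and in 11 of them 1 library stood apart. These fall on 7 distinct libraries. Chance flags about 1 in 20 such groups, or about 5.3 here. RET replicate 3 was the high library for Col12a1 (3.19 CPM against 0.474 to 1.2 in the other replicates), Col15a1 (34.0 against 13.8 to 18.9) and Col4a2 (17.3 against 13.2 to 13.5). RET replicate 4 was high for Col27a1 (4.05 against 3.02 to 3.31) and Col6a3 (2.80 against 1.34 to 1.58). HCmel12 replicate 3 was high for Col12a1 (1.30 against 0.162 to 0.488) and Col15a1 (8.92 against 4.8 to 5.78), and HCmel12 replicate 4 was high for Col5a3 (2.26 against 0.642 to 0.973). WT31 replicate 1 was high for Col5a1 (59.8 against 16.6 to 28.7) and D4M replicate 3 for Lamb2 (42.6 against 31.3 to 33.5). B16F10 luc2 replicate 3 was low for Col4a4 (8.04 against 10.4 to 11.1).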

How the results depend on the processing

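In 28 named genes and 10 comparisons, 227 of 280 tests passed the main fit, and no setting gave a call in the opposite direction. Other scalings, tests and filters kept 205 to 227 of these calls where all named genes were tested, with 224 by library size alone, 226 by edgeR's quasi-likelihood test and 226 by DESeq2. The lowest number came from a required log2 difference of 1. Library size alone moved the median of all genes by up to 0.225 and TPM by up to 0.254 (log2).

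With at least 10 counts in every library, only 12 named genes remained tested in the comparisons, and fewer genes were called because fewer were tested. Then 12 (WT31, 76.7% of all genes under this filter), 11 (B16F10 luc2, 78.7%) and 11 (RET, 77.9%) genes differed from D4M, 11 (73.1%), 10 (72.8%) and 9 (70.7%) differed from HCmel12 in this order of lines, 11 differed between D4M and HCmel12 (72.7%), 12 between WT31 and B16F10 luc2 (76.3%), 12 between WT31 and RET (76.6%) and 7 between B16F10 luc2 and RET (56.7%), and 4 were commonly regulated (13.0%). Leaving out each library in turn gave 16 to 24 genes between B16F10 luc2 and RET and 6 to 8 commonly regulated genes, the other counts of genes called between 2 lines staying within 1.5 times of the count with all libraries. The number of genes lower than in all 4 other lines was 3 to 6 in B16F10 luc2 (5 with all libraries), 1 to 2 in RET (1) and 6 to 7 in D4M (7) when each library was left out. Under other settings in which the genes were tested it was 2 to 5 in B16F10 luc2, 2 to 6 in HCmel12 (3), with 6 by DESeq2, and 3 to 8 in D4M, with 3 in fits of 2 lines and 4 with TPM and a pseudocount of 1. With all genes that had a count, Col4a2 and Col18a1 (B16F10 luc2), Col16a1 and Col1a2 (HCmel12) and Col15a1 (D4M) were lost. Under these other settings the number higher than in all others was 4 to 7 in WT31 (6), 1 to 3 in B16F10 luc2 (2) and 18 to 21 in D4M (20). The 4 of WT31 came from fits of 2 lines and from a required log2 difference of 1. These ranges leave aside the minimum of 10 counts, under which most of these genes were not tested. Leaving out D4M replicate 1 gave 22 in D4M, where Col27a1 and Col7a1 were gained.

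Signs turned for 2 of the differences given above. The log2 difference of Col15a1 between RET and B16F10 luc2 (0.12) was -0.14 with TPM and a pseudocount of 1, -0.16 with a pseudocount of 0.1, and -0.078 to 0.24 when each library was left out. The log2 difference of Lamc1 between D4M and WT31 (0.36) was -0.12 with TPM under both pseudocounts. The cause was not tested. Replicate numbers did not pair the libraries: of 50 pairs of same-numbered libraries 4 correlated above 0.1 (range -0.131 to 0.140). A replicate block kept 226 of 227 calls, losing Lamc1 between B16F10 luc2 and RET (adjusted p = 0.063), and gave 9 commonly regulated genes in place of 7.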
